A study of Mus musculus with 6 samples.

Results

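The genes described here encode the subunits of the receptors for glutamate and GABA (gamma-aminobutyric acid), the main excitatory and inhibitory transmitters of the cortex. They were chosen by symbol alone: protein-coding genes of the AMPA (Gria), kainate (Grik), NMDA (Grin), delta (Grid) and metabotropic (Grm) glutamate receptor families, of the GABA-A alpha, beta, gamma, delta and rho subunits (Gabra to Gabrr) and of the GABA-B receptor (Gabbr). Of 44 genes that match, 34 had at least 10 counts in 3 or more of the 6 libraries and are the members, out of 54146 genes in the count tables. All 34 were among the 16897 genes tested for a difference between groups.

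The libraries came from mouse cortex at E15.5 (embryonic day). Embryos were electroporated in utero at E14.5 with a plasmid for green fluorescent protein (GFP, CAG promoter, 0.7 µg/µl) and a plasmid with a hairpin under the U6 promoter (1 µg/µl), and GFP-positive cells were sorted 24 hours later. The Mir group (3 libraries) carried the precursor of the microRNA miR-3607 and the Scr group (3 libraries) the scrambled hairpin supplied with the vector, so that both groups share the GFP plasmid, the U6 hairpin vector and the surgery. Each library pooled the sorted cells of 2 embryos. The labels name the strain as ICR in one place and C57BL/6 in another. The sample source is given as cortical progenitors, but the libraries also held RNA of neurons. The excitatory neuron marker Neurod2 averaged 523 ± 23.5 CPM over the Scr libraries (CPM scale counts to a common library total; SD, n = 3) and 552 ± 29.9 CPM over the Mir libraries. Of the 12 excitatory neuron markers followed below, Neurod2 among them, 9 had lower means in Mir. Their median log2 fold change (Mir over Scr) was -0.31. The comparison asks how expression differs when the precursor of miR-3607 is supplied in place of the scrambled hairpin.

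The 6 libraries held between 12724511 and 16684038 counts in genes, which was 21.9 to 23.6% of the counted reads, and the scaling factors lay between 0.992 and 1.01. The reads came from amplified cDNA without molecular identifiers, so they are not independent molecules. The labels do not say whether pools of the 2 groups shared a litter or a day. The p-values set the difference between groups against the spread between the pools within a group.

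AMPA, kainate and NMDA receptors are ion channels built of several subunits that open when glutamate binds, delta receptors are their relatives, and metabotropic glutamate receptors act through G proteins. GABA-A receptors are chloride channels, most often built of alpha, beta and gamma subunits, and GABA-B receptors are G-protein-coupled pairs of Gabbr1 and Gabbr2. In the embryonic cortex both transmitters act on progenitors and migrating neurons before synapses form, and GABA often depolarizes such cells because their chloride is high.

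A microRNA pairs with messenger RNA mainly through its seed, bases 2 to 8, so the sequences that matter to the comparison are the seed and its matches in receptor messages. The strand after the loop of the hairpin oligonucleotide is shown with the seed in capitals.
Hairpin strand: gCATGTGAtgaagcaaatcag
A match was TCACATG (pairing with bases 2 to 8) or CACATGA (pairing with bases 2 to 7, followed by A); both together make the 8mer TCACATGA, and only the sense strand of the message was searched. Searching the 3′ UTR of 1 transcript per gene, that with the longest coding sequence, a match was found in 9 of 33 members with a 3′ UTR, 27.3%, against 17.4% of 12712 protein-coding genes tested. The receptor messages have longer 3′ UTRs (median 2253 bases against 1022). Per length the matches were as frequent as elsewhere, at 1.44 per 10 kb in the members and 1.43 in all genes. Among genes with a 3′ UTR of at least 2000 bases, 8 of 19 members (42.1%) and 38.8% of all genes held one.

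The windows below show the 8mer of Grm2, the single one among the members, the 3 matches of Gabrg3 and a match each of Grin2b and Grik3, which are among the members with the smallest p in the comparison of groups. They are GRCm38 sequence in the direction of the message, with the match in capitals.
Grm2 (chr9:106644449-106644472, minus strand): tatgtagctgagcaTCACATGAaa
Gabrg3 (chr7:56724215-56724237, minus strand): tcacacacactcacTCACATGtg
Gabrg3 (chr7:56721097-56721119, minus strand): tggtcatttttatcTCACATGcc
Gabrg3 (chr7:56717300-56717322, minus strand): cccaaaatatgggaTCACATGct
Grin2b (chr6:135718899-135718921, minus strand): cccatattacctgcCACATGAta
Grik3 (chr4:125709845-125709867, plus strand): agccaagcccagtgCACATGAtg
The 9 members with a match had a median log2 fold change (Mir over Scr) of -0.82 and the 24 without one a median of -0.80. Both values lie well below those of all protein-coding genes, which were at -0.03 with and 0.00205 without a match. Lower means in Mir were found for 6 of the 9 and 23 of the 24. Grm2, which holds the 8mer, was at -0.42 ± 0.36 (SE), and Gabrb1, with 3 matches of 7 bases, was at 0.09 ± 0.44. A match is a description of the letters and not a measured site.

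Receptor genes differed widely in level. Levels of different genes are compared per length, as CPM per kb of exon. Gria2, the AMPA subunit that sets low calcium permeability, came first, with 34.9 CPM per kb in Scr and 27.4 in Mir. The kainate subunit Grik5 (12.1 and 11.5) and the GABA-B subunit Gabbr1 (10.3 and 10.6) followed. The AMPA subunit Gria1 had a mean of 6.13 ± 4.66 CPM per kb in Scr (SD, n = 3), above that of Grik2 (3.01 ± 0.663). In Mir its mean was 1.77, below that of Grik2 (2.52). The order of these genes did not hold in every library of a group. Gria1 lay below Grik2 in Scr replicate 1 and above it in Mir replicate 3. Gria2, Grik5 and Gabbr1 kept the first 3 places when the length of 1 transcript replaced that of all exons. Further down the order depended more on which length was used.

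**Figure D1:**
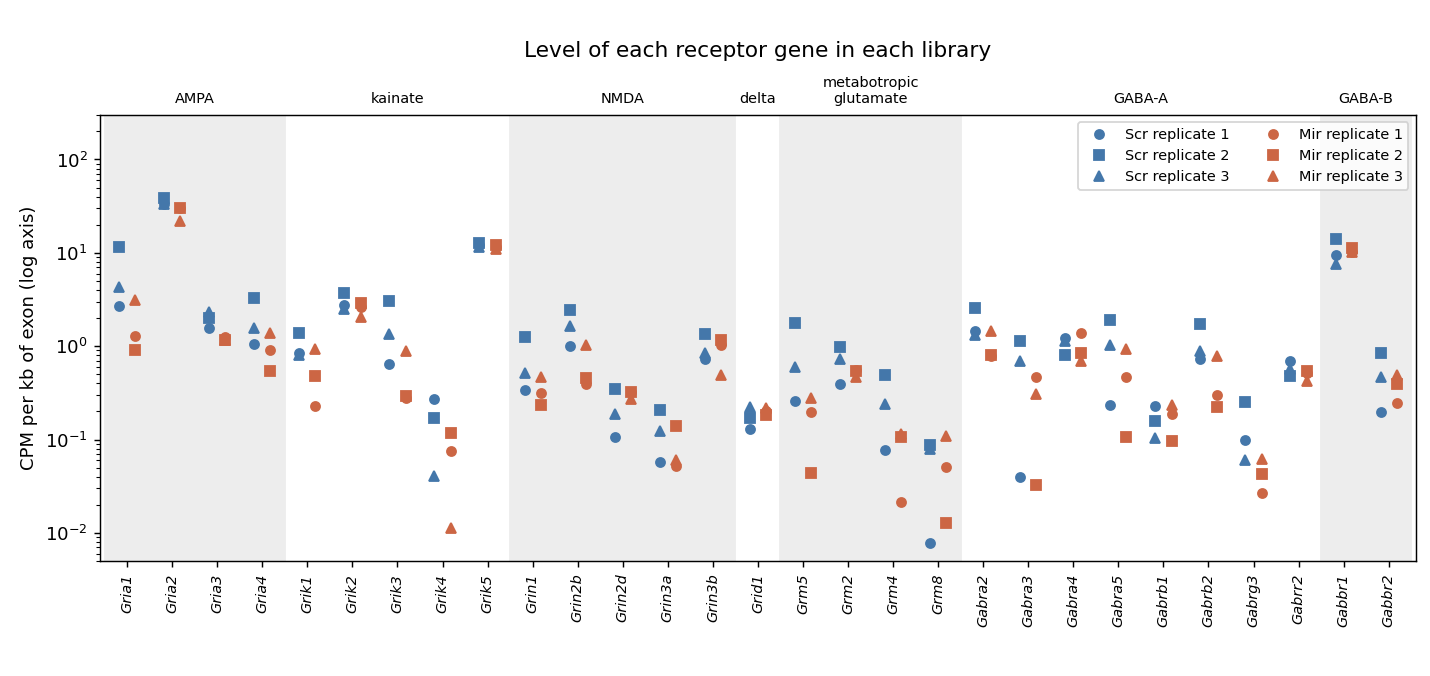
Level of 29 of the 34 receptor genes in each of the 6 libraries, as CPM per kb of exon on a log axis, by receptor family; circles, squares and triangles are replicates 1, 2 and 3, blue Scr and orange Mir. Gria2, Grik5 and Gabbr1 are highest, and Scr replicate 2 is the highest Scr library for many of the genes.

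Across the groups, receptor genes had mostly lower means in Mir, but none passed the test. By edgeR's quasi-likelihood F test with Benjamini-Hochberg adjustment over all genes, 0 of 34 members were called at an adjusted p under 0.05, where the background over all genes was 0% higher and 0.00592% lower. At an unadjusted p under 0.05 there were 12 members lower and 0 higher, against 7.93% and 6.57% of all genes tested. DESeq2 called 4 members lower and 0 higher, of 20 members to which it gave an adjusted p, and limma-voom called 0. DESeq2 called 333 of all 16897 genes tested lower (1.97%) and 247 higher (1.46%). Of the genes tested, 3612 had no adjusted p from DESeq2, so both shares would be larger over the genes that had one. The median log2 fold change was -0.82 over the members and -0.01 over all genes tested, and 30 of 34 members had a value below 0, against 51.2% of all genes.

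These counts moved with single libraries. Without Scr replicate 2 the members' median was -0.43 and 4 members were lower at an unadjusted p under 0.05, with 2 higher, against backgrounds of 5.47% and 6.73%. Without Mir replicate 1 there were 5 lower, and without Mir replicate 2 there were 4, against 4.8% and 4.45% of all genes. Of the members, 3 were lower at an unadjusted p under 0.05 in each of the 15 alternatives run, Gria3 and Grin2b among them. The share of all genes that did so was not counted. The alternatives reuse the same 6 libraries, so this count is a description and no support for a difference.

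The 3 Mir libraries lay wholly below the 3 Scr libraries for 4 of 34 members, Gria2 and Gria3 among them, against a background of 10.3% of all genes, and wholly above for 0 members against 9.72%. That share is close to the background and is not a result about the receptor genes. All 4 have a mean of at least 5 CPM over the 6 libraries, a level reached by 16 members with a median of -0.85. The 18 members under it had a median of -0.72.

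**Figure D2:**
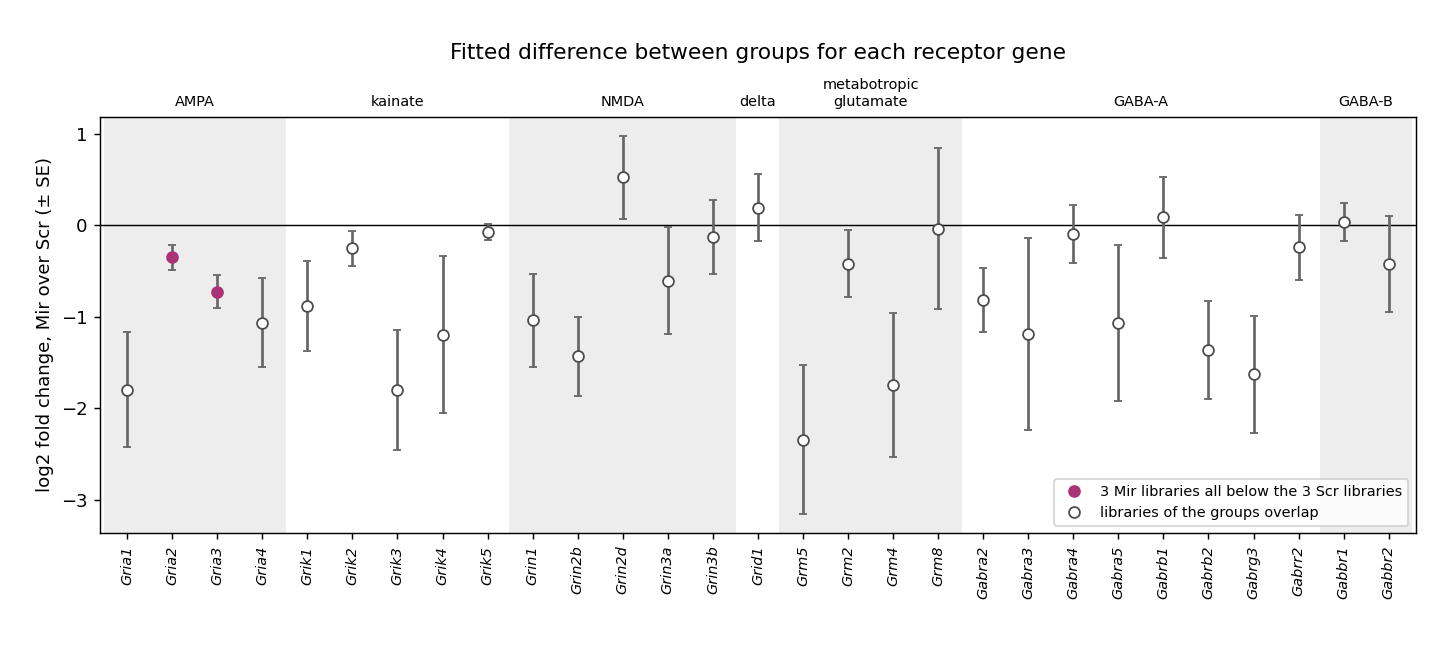
Fitted log2 fold change, Mir over Scr, with its standard error for 29 of the 34 receptor genes, by family; filled points mark genes whose 3 Mir libraries all lie below the 3 Scr libraries. Of the 29 points 25 lie below 0, and the filled points are Gria2 and Gria3.

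In the AMPA family all 4 subunits were lower on average in Mir, the median log2 fold change being -0.90. Gria3 (chromosome X, 41400854 to 41678601; gene positions are on GRCm38), one of the subunits that line the channel, was at 15.6, 19.9 and 23.1 CPM in Scr replicates 1, 2 and 3 and at 12.5, 11.4 and 11.5 CPM in Mir replicates 1, 2 and 3. The Mir libraries were close to each other and below every Scr library, and the highest library was Scr replicate 3. The log2 fold change was -0.73 ± 0.18 (SE), with an edgeR adjusted p of 0.212 and a DESeq2 adjusted p of 0.0279, and with adjusted p-values from 0.0279 to 0.587 over the alternatives. It was -0.72 when Scr replicate 2 was left out and -0.70 when Mir replicate 3 was left out as well.

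Gria2 (chromosome 3, 80681450 to 80802835) was at 517, 597 and 515 CPM in the Scr libraries and at 469, 468 and 340 CPM in the Mir libraries. The groups did not overlap, and Mir replicate 3 was the lowest library. Its log2 fold change was -0.35 ± 0.14 (SE; edgeR adjusted p 0.312), and -0.23 without Mir replicate 3. Gria1 (chromosome 11, 57011387 to 57330244), a subunit known for its role in activity-driven synaptic change, was at 16.1, 69.1 and 26 CPM in the Scr libraries and at 7.70, 5.56 and 18.8 CPM in the Mir libraries. Scr replicate 2 stood far above the others and Mir replicate 3 lay above Scr replicate 1, so the groups overlapped. The log2 fold change of -1.80 ± 0.62 (SE; edgeR adjusted p 0.280) was -0.99 without Scr replicate 2. Gria4, a subunit with fast kinetics, was at -1.07 ± 0.48 (SE; edgeR adjusted p 0.363), and -0.49 without Scr replicate 2.

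The kainate receptor genes differed among themselves. Grik5 (chromosome 7, 25009849 to 25072346), a subunit that needs a Grik1 to Grik3 partner to form a channel, was at 62.4, 66.5 and 59.3 CPM in the Scr libraries and at 59.2, 62.9 and 56.7 CPM in the Mir libraries. Its libraries overlapped within a narrow range, and the log2 fold change was -0.07 ± 0.09 (SE; edgeR adjusted p 0.749). Grik3 (chromosome 4, 125490700 to 125714173), which can form channels alone, was at 5.76, 27.7 and 12.2 CPM in the Scr libraries and at 2.48, 2.62 and 8.01 CPM in the Mir libraries. The lowest values were Mir replicates 1 and 2, while Mir replicate 3 exceeded Scr replicate 1. Its log2 fold change was -1.80 ± 0.66 (SE; edgeR adjusted p 0.291), and -1.05 without Scr replicate 2. Grik2, the second kainate gene per length, was at -0.25 ± 0.19, Grik1 at -0.88 ± 0.49 and Grik4 at -1.20 ± 0.86 (SE), with edgeR adjusted p-values of 0.582, 0.454 and 0.552.

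Of the NMDA receptor genes, Grin2b, the glutamate-binding subunit that prevails before birth, stood highest per length in Scr, at 1.69 CPM per kb against 0.978 for Grin3b. In Mir its mean was below that of Grin3b, at 0.626 ± 0.351 against 0.893 ± 0.353 CPM per kb (SD, n = 3), but in Mir replicate 3 Grin2b was above Grin3b. Grin2b (chromosome 6, 135713233 to 136173511) was at 24.9, 60.2 and 40.8 CPM in the Scr libraries and at 9.79, 11.2 and 25.6 CPM in the Mir libraries. The groups overlapped by a small step, Mir replicate 3 against Scr replicate 1. The log2 fold change was -1.44 ± 0.44 (SE), with an edgeR adjusted p of 0.244 and a DESeq2 adjusted p of 0.0164, from 0.0164 to 0.611 over the alternatives. It stayed between -1.08 without Scr replicate 2 and -2.01 without Mir replicate 3 when a library was left out.

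Grin1, the subunit that every NMDA receptor needs, had a mean of 6.79 ± 4.67 CPM in the Scr libraries and of 3.30 ± 1.14 CPM in the Mir libraries (SD, n = 3), a log2 fold change of -1.04 ± 0.51 (SE; edgeR adjusted p 0.396) that was -0.33 without Scr replicate 2. Grin2d, a subunit found in early brain and in inhibitory neurons, was the member with the highest log2 fold change, 0.52 ± 0.45 (SE; edgeR adjusted p 0.633), with levels of 0.701 to 2.32 CPM in the Scr libraries and 1.83 to 2.17 CPM in the Mir libraries. Grin3a and Grin3b, the glycine-binding subunits of unusual receptors, were at -0.61 ± 0.59 and -0.13 ± 0.41 (SE). Grin2a, the subunit that gains weight after birth, reached 10 counts in 1 library and Grin2c in 0 libraries. Counts of Grin1, Grin2d and Grin3b are uncertain, since 13.5, 9.66 and 32.1% of their exon bases are shared with genes of the opposite strand (Grin1os, Gm45441 and Tmem259) and the counting is not stated to use strand.

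The delta receptor gene Grid1, whose product organizes synapses, was low in level. Grid1 was at 0.779, 1.01 and 1.32 CPM in the Scr libraries and at 1.21, 1.09 and 1.29 CPM in the Mir libraries, with overlapping groups and a log2 fold change of 0.19 ± 0.37 (SE; edgeR adjusted p 0.848).

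The 5 metabotropic members all had fold changes below 0, with a median of -0.83 that lay between -1.14 without Mir replicate 2 and -0.51 without Mir replicate 1. Grm5 (chromosome 7, 87584168 to 88134907), which couples to phospholipase C and is a known glutamate receptor of cortical progenitors, was at 2.65, 18.2 and 6.20 CPM in the Scr libraries and at 2.04, 0.447 and 2.85 CPM in the Mir libraries. Scr replicate 2 held most of the Scr signal, and Mir replicate 3 lay above Scr replicate 1. Its log2 fold change of -2.34 ± 0.81 (SE) had an edgeR adjusted p of 0.280 and a DESeq2 adjusted p of 0.041, from 0.041 to 0.613 over the alternatives, and was -1.33 without Scr replicate 2. Grm2, an inhibitory autoreceptor, had the highest mean per kb of exon in the family over the 6 libraries. Grm5 had the higher Scr mean (0.881 ± 0.798 against 0.704 ± 0.291 CPM per kb, SD, n = 3), but stood above Grm2 in Scr replicate 2 only. By the length of 1 transcript Grm5 was above Grm2 over the 6 libraries, at 1.20 against 0.639 CPM per kb. Grm2 was at 1.95, 4.78 and 3.61 CPM in the Scr libraries and at 2.73, 2.68 and 2.31 CPM in the Mir libraries, so the groups overlapped, with a log2 fold change of -0.42 ± 0.36 (SE; edgeR adjusted p 0.629). Of its exon bases 9.60% are shared with a gene of the opposite strand. Grm4 (-1.75 ± 0.78) and Grm8 (-0.04 ± 0.88, SE) were lower in level, at means of 1.63 and 0.577 CPM in Scr. Without Scr replicate 2, Grm2 was at -0.12 and Grm4 at -1.01.

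In the GABA-A family, 10 of 11 members had fold changes below 0, with a median of -1.07, and 6 of the 11 were lower at an unadjusted p under 0.05, against 7.93% of all genes. The median was -0.45 without Scr replicate 2. Gabrb2, a beta subunit of the mature brain, was at 4.67, 10.9 and 5.66 CPM in the Scr libraries and at 1.91, 1.41 and 4.95 CPM in the Mir libraries. Mir replicate 3 lay above Scr replicate 1, and the log2 fold change was -1.36 ± 0.53 (SE; edgeR adjusted p 0.312). Gabrg3, with its 3 seed matches, was near the lower end, at 1.17, 3.04 and 0.723 CPM in the Scr libraries and at 0.318, 0.511 and 0.746 CPM in the Mir libraries. Its groups overlapped, with a log2 fold change of -1.63 ± 0.64 (SE; edgeR adjusted p 0.312), and -0.83 without Scr replicate 2.

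Among the alpha subunits, Gabra2 was the highest per kb of exon and had a mean of 13.7 ± 5.37 CPM in the Scr libraries and of 7.77 ± 2.85 CPM in the Mir libraries (SD, n = 3). The log2 fold changes of Gabra2, Gabra3, Gabra4 and Gabra5 were -0.82 ± 0.35, -1.19 ± 1.05, -0.10 ± 0.32 and -1.07 ± 0.85 (SE), with edgeR adjusted p-values of 0.344 to 0.917. Without Scr replicate 2, Gabra2 was at -0.45, Gabra3 at -0.46 and Gabra5 at -0.36. Gabra4, Gabrb1 (0.09 ± 0.44, SE) and the rho subunit Gabrr2 (-0.24 ± 0.36, SE) were near 0.

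GABA-A genes lie in clusters, and fold changes of some neighbours are set side by side here. On chromosome 11, Gabrb2 was at -1.36, while its neighbour Gabra6 had 0 counts in every library and so no fold change. On chromosome 5, Gabra2 was at -0.82 while its neighbours Gabra4 and Gabrb1 were at -0.10 and 0.09. On chromosome 7, Gabrg3 and Gabra5 were at -1.63 ± 0.64 and -1.07 ± 0.85 (SE). Differences between neighbours were not tested.

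The GABA-B genes differed from each other in level. Gabbr1 (chromosome 17, 37045966 to 37075067), which binds GABA, was at 73.1, 109 and 59.4 CPM in the Scr libraries and at 79.7, 87.6 and 79.7 CPM in the Mir libraries. The Mir libraries lay inside the Scr range, and the log2 fold change was 0.04 ± 0.20 (SE; edgeR adjusted p 0.954). Gabbr2, the partner that carries the receptor to the surface, was at 3.39 ± 2.21 CPM in the Scr libraries and at 2.53 ± 0.839 CPM in the Mir libraries (SD, n = 3). Its log2 fold change was -0.42 ± 0.53 (SE; edgeR adjusted p 0.750), and 0.17 without Scr replicate 2.

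The count minimum left out 10 genes. Just outside it, with 10 counts in 2 libraries, Grm3 had 6, 33 and 23 counts in Scr and 6, 3 and 9 in Mir. Grm7 had 1, 11 and 12 counts in Scr and 1, 5 and 8 in Mir, and Gabrg1 had 3, 13 and 0 in Scr and 0, 1 and 17 in Mir. Just inside it, 4 members met the minimum in exactly 3 libraries, Grik4 and Grm8 among them. Grik4 had 21, 14 and 4 counts in Scr and 7, 11 and 1 in Mir. Grm8 had 1, 12 and 13 counts in Scr and 8, 2 and 16 in Mir. Grin2a, Grin2c, Grm6, Gabrd and Gabrr1 stayed lower, and Gabra6 (a subunit of cerebellar granule cells) and Gabrr3 had 0 counts in all 6 libraries. Of the 34 members, 22 had at least 10 counts in every library; the other 12 include genes that met the minimum through the group where they were higher, so that the members' counts and medians describe them and are no support for a difference.

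Libraries of 1 group differed in the same direction for many members. Scr replicate 2 was the highest Scr library for 26 of 34 members, against 39.8% of all genes, and Mir replicate 3 was the highest Mir library for 19, against 38.2%. With each gene's mean over Scr subtracted, on log2 (CPM + 0.5), the members' medians were -0.46, 0.50 and -0.07 in the Scr libraries, in the order of their replicate numbers. They were -0.66, -0.72 and -0.43 in the Mir libraries in the same order. Scr replicate 1 and Mir replicate 3 were nearly level. The same medians over all genes tested were between -0.02 and 0.01.

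**Figure D3:**
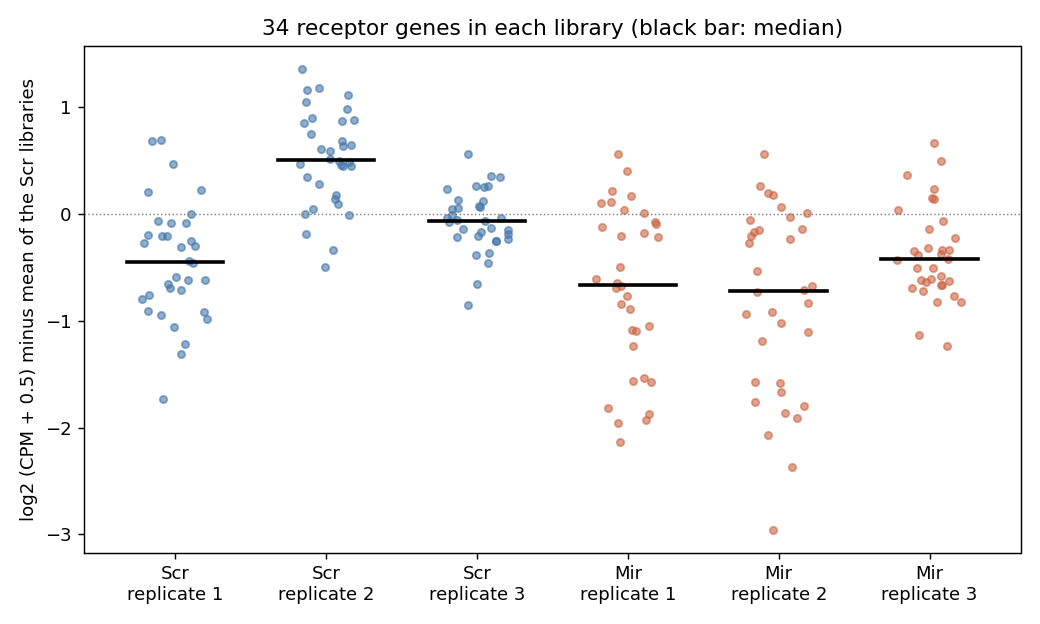
Each of the 34 receptor genes in each library, as log2 (CPM + 0.5) minus the gene's mean over the Scr libraries; black bars are medians. Scr replicate 2 is highest, at 0.50, and Scr replicate 1, at -0.46, lies level with Mir replicate 3, at -0.43.

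Markers of other cells moved with the same libraries. The summed level of 13 inhibitory neuron markers was 338, 1281 and 480 CPM in Scr replicates 1, 2 and 3 and 202, 192 and 442 CPM in Mir replicates 1, 2 and 3. All 13 were lower on average in Mir (median log2 fold change -1.65), and none was at 0 in any library. Gad2, which makes GABA, was at 40, 144 and 52.3 CPM in the Scr libraries and at 22.1, 16.8 and 45.9 CPM in the Mir libraries, and the interneuron factor Lhx6 was at 11.3, 76.4 and 27.7 CPM in the Scr libraries and at 10.2, 10.2 and 19.3 CPM in the Mir libraries. For 12 excitatory neuron markers the sum was 5784, 7292 and 6050 CPM in the Scr libraries and 5327, 4821 and 5321 CPM in the Mir libraries, with a median of -0.31, and for 11 radial glia markers it was 1895, 1451 and 2176 CPM in the Scr libraries and 1905, 2306 and 2708 CPM in the Mir libraries, with a median of 0.23. The part of these cells in the receptor values was not tested, and in such libraries fewer cells of a type and less RNA per cell cannot be told apart.

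Markers of other cell types were summed in the same way. Endothelial markers (10 genes) summed to 21 to 241 CPM in the Scr libraries and to 5.47 to 50.4 CPM in the Mir libraries, with 6 and 5 of the 10 at 0 in Mir replicates 1 and 2 and none at 0 elsewhere. Pericyte markers (6 genes) summed to 26.7 to 98.8 and 7.95 to 39.8 CPM, and microglia markers (10 genes) to 40.9 to 113 and 26 to 84.1 CPM, with 3 and 1 pericyte and 7 and 2 microglia markers at 0 in Mir replicates 1 and 2. Cajal-Retzius markers (7 genes) summed to 14.9 to 21.9 and 7.03 to 13.4 CPM, and oligodendrocyte precursor markers (6 genes) to 9.35 to 48.5 and 27.4 to 40.2 CPM. At most 3 Cajal-Retzius and 2 oligodendrocyte precursor markers were at 0 in any library. Median log2 fold changes were -2.35 for endothelial (10 of 10 lower), -2.10 for pericyte (5 of 6 lower) and -1.42 for microglia markers (10 of 10 lower). They were -0.74 for Cajal-Retzius (4 of 4 tested lower) and 0.13 for oligodendrocyte precursor markers (2 of 4 tested lower). Of 8 intermediate progenitor markers, 7 were higher on average in Mir (median 0.52), with sums of 2194 to 3362 CPM in Scr and 2946 to 4341 CPM in Mir. The part of these cells in the receptor values was not tested either.

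**Figure D4:**
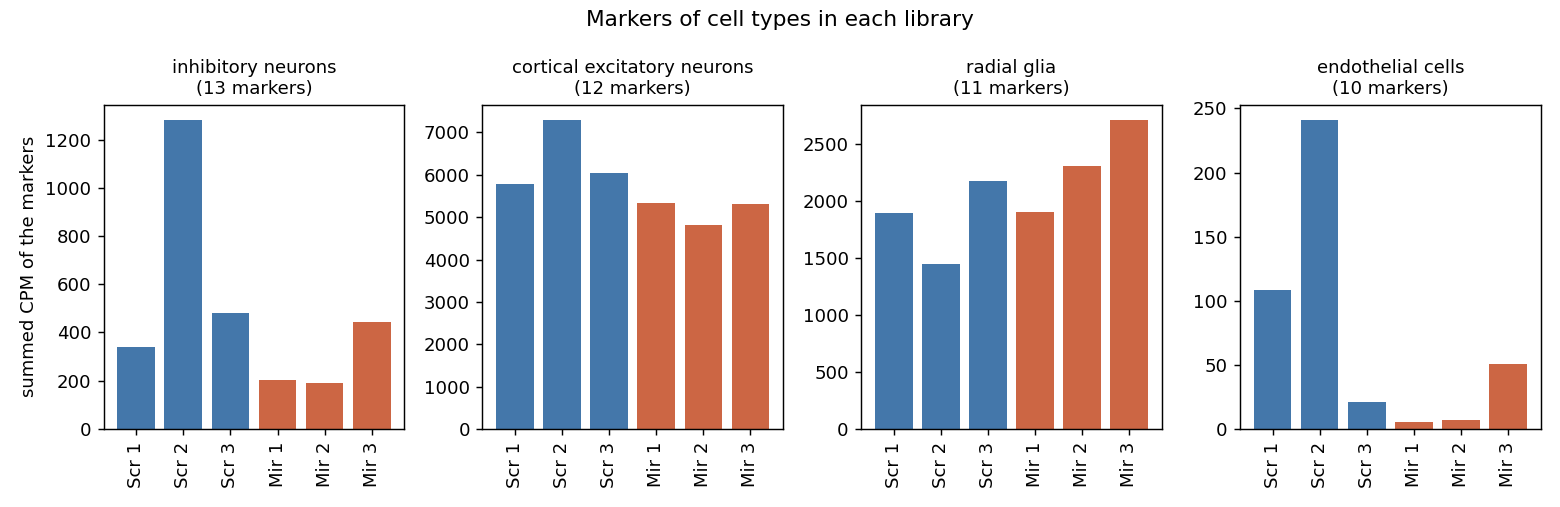
Summed CPM of the markers of 4 cell types in each library, blue Scr and orange Mir, with axes from 0. Inhibitory neuron markers peak in Scr replicate 2, at 1281 CPM, and are lowest in Mir replicates 1 and 2, at 202 and 192 CPM.

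Proteins that work with the receptors were followed as lists. Of 13 tested auxiliary subunits of glutamate receptors, which steer their gating and transport, 10 were lower on average in Mir, with a median of -0.75 that was -0.41 without Scr replicate 2. At an unadjusted p under 0.05, 3 were lower, against 7.93% of all genes. Cacng2 (stargazin, which carries AMPA receptors to the surface) was at -1.44 ± 0.42, Cacng3 at -1.75 ± 0.72 and the kainate receptor partner Neto2 at -0.83 ± 0.32 (SE), with edgeR adjusted p-values of 0.240, 0.327 and 0.309. Of 18 scaffold genes of glutamate receptors, 14 had lower means, with a median of -0.30 that was -0.12 without Scr replicate 2, and 5 were lower at an unadjusted p under 0.05, against the same 7.93%. Shank1 was at -1.34 ± 0.42 and Dlg2 at -0.68 ± 0.26 (SE), while Dlg4 (PSD-95), named after its value was seen, was at 0.02 ± 0.15. Of 10 GABA-A scaffold and auxiliary genes 8 had lower means, with a median of -0.31 that was -0.17 without Scr replicate 2. Shisa7 (-1.16 ± 0.48) and Nlgn2 (a neuroligin of inhibitory synapses; -0.32 ± 0.13, SE) were among the 3 with the smallest p. By edgeR adjusted over all genes, 0 genes of these 3 lists were called, and DESeq2 called 1, 1 and 0 of them lower.

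Genes that make and move the transmitters differed. Of 10 tested genes of glutamate transport and metabolism 0 were at an unadjusted p under 0.05, and their median was -0.20. Slc1a3 (the glutamate transporter of radial glia; 0.37 ± 0.20) and Slc1a6 (-0.82 ± 0.66, SE) were among the 3 with the smallest p. Of 7 tested genes of GABA synthesis, transport and breakdown, 4 had lower and 3 higher means, with a median of -1.06 that was -0.05 without Scr replicate 2. Slc6a11, a GABA transporter, was at 3.66, 2.61 and 3.01 CPM in the Scr libraries and at 4.13, 6.20 and 7.60 CPM in the Mir libraries, a log2 fold change of 0.95 ± 0.30 (SE; edgeR adjusted p 0.253). The 3 Mir libraries lay above the Scr libraries, unlike those of Gad2 (-1.48 ± 0.55) and Slc32a1 (the vesicular GABA transporter; -2.38 ± 0.89, SE), which are also inhibitory neuron markers.

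Of 4 chloride transporters, Slc12a7 (a potassium-chloride cotransporter) was at 40, 50.2 and 43 CPM in the Scr libraries and at 62.6, 71.2 and 60.7 CPM in the Mir libraries. The groups did not overlap, with a log2 fold change of 0.55 ± 0.12 (SE) and an edgeR adjusted p of 0.204. Slc12a2 (NKCC1, which loads chloride) was at -0.34 ± 0.18 and Slc12a5 (KCC2, which expels it) at -0.07 ± 0.31 (SE), with a mean of 1.97 ± 0.29 CPM in Scr (SD, n = 3). Of 8 other GABA-A and glycine receptor genes 3 were tested. The glycine receptor subunit Glra2, known from migrating cortical neurons, was at 10, 32 and 19.2 CPM in the Scr libraries and at 5.53, 3.77 and 9.70 CPM in the Mir libraries, wholly lower by a small step. Its log2 fold change was -1.69 ± 0.48 (SE; edgeR adjusted p 0.234), while Glrb was at -0.29 ± 0.14 and Gabre at 0.13 ± 0.55 (SE). By edgeR 0 genes of these 4 lists were called, and 2 higher and 4 lower were at an unadjusted p under 0.05, against 6.57% and 7.93% of all genes. DESeq2 called Slc12a7 higher and Glra2 lower, against 1.46% and 1.97% of all genes.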

How the data were processed

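RNA of sorted GFP-positive cells was amplified (SMART-seq v4) and sequenced as single reads, per the labels' protocols. The authors deposited 1 table of raw read counts per gene and library, and the submitters' processing notes name HISAT2 2.1.0, HTSeq 0.11.0, DESeq2 1.18.1 and the build mm10. For annotation and strand the setting is not given in the sources used here. The 5 summary lines of each table were left out, so that 54146 genes remained, 54079 with a symbol in GENCODE M21 (GRCm38), which also gave positions, exon lengths and 3′ UTRs. The hairpin sequence came from the labels.

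Genes were filtered by edgeR's default rule and scaled by TMM, and Mir was compared with Scr (3 libraries each) by the two-sided quasi-likelihood F test of edgeR 4.0.16 (R 4.3.3), with Benjamini-Hochberg adjustment over 16897 genes and a threshold of 0.05. CPM are TMM-scaled. DESeq2 1.42.0 and limma 3.58.1 were alternatives, with other scalings and filters, a replicate block, and libraries left out; the biological coefficient of variation was 23.6%. Tested on simulated data for this comparison, the edgeR step recovered 64% of genes with a log2 change of 1 and 100% with a change of 2. Recovery at the levels and spread of the receptor genes was not tested. Among them, Grm5 had a log2 fold change of -2.34 and an edgeR adjusted p of 0.280. Values per library are given for the 10 members with the smallest p, the highest member per kb of each family and those beside the count minimum, and the 3 genes with the smallest p of each associated list are named; other names were chosen after their values were seen. The members and lists were chosen with earlier results of these data known. Values of some genes, members among them, are not reported here.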

Additional observations from a re-analysis of the deposited data

How the results depend on the processing

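Of the 15 alternatives, 13 to 15 gave a value for each member; 25 members kept their direction in all that did and 9 turned in at least 1. Genes called higher and lower numbered 15 and 16 without a filter and 247 and 333 with DESeq2 (4 members), and limma-voom called 0 lower. Without the pair of Scr replicate 2 and Mir replicate 3 they numbered 10 and 19, with 1 member higher at an unadjusted p under 0.05, against 8.55% of all genes. No other pair was left out, and these libraries were the highest of their groups for many members. Removing them is therefore not a neutral check. Libraries of equal replicate number had correlations of deviations of 0.248, -0.147 and -0.0866. With 3 libraries per group these values cannot show whether the numbers mark a shared litter or day. With the replicate block 0 genes were called lower and Grm8 was at 0.0039. In that fit 10 members were lower at an unadjusted p under 0.05, against 7.16% of all genes. With 1 library left out, 0 to 2 genes were called lower. At an unadjusted p under 0.05, 4 to 14 members were then lower, against 4.45 to 11.3% of all genes. For the 0 to 2 members that were higher the background was 3.7 to 6.73%. In the same fits family medians ranged from -1.01 to -0.50 (kainate), -0.96 to -0.11 (NMDA), -1.14 to -0.51 (metabotropic), -0.89 to -0.23 (delta), -1.43 to -0.45 (GABA-A) and -0.41 to 0.24 (GABA-B). Medians then ranged from -0.25 to -0.045 for glutamate transport, -1.41 to -0.047 for GABA synthesis and -0.20 to -0.066 for chloride transporters, and Grin3b from -0.36 to 0.18, Grm8 from -0.87 to 0.45, Gabra4 from -0.44 to 0.075, Gabrb1 from -0.21 to 0.42, Gabbr1 from -0.13 to 0.31 and Gabbr2 from -0.80 to 0.17. With a minimum of 50 counts, 16 members lay below 0, and the medians were -0.58 (kainate), 0.025 (GABA-B), -0.21 (chloride transporters) and -1.0 (other receptors), as fewer genes were tested. Without the pair they were 0.074 (NMDA), 0.13 (GABA-B), -0.012 (glutamate transport), -0.019 (chloride transporters) and -0.64 (other receptors), with Grik2 at 0.061, Grik5 at 0.0031, Grin3a at 0.074, Grin3b at 0.47 and Gabrb1 at -0.22. Gria2 was at 46.7 CPM per kb by transcript length, against 31.2 by exon length. Other causes were not tested.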

Other observations

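Grin1os, the antisense gene that shares exon bases with Grin1, had means of 2.67 (Scr) and 1.45 (Mir) CPM, with a log2 fold change of -0.88 ± 0.63 (SE; edgeR adjusted p 0.555). Reads of the 2 genes cannot be told apart where they overlap if the counting did not use strand.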
